A study of Mus musculus with 6 samples.

Results

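The genes described here are 35 genes of red cell formation, haem synthesis and platelets, measured in sorted mouse leukaemia progenitors on 6 Affymetrix arrays. They were chosen by symbol from the platform annotation, all 35 were found among the 18194 genes measured, and the brightest probe set of each (by mean log2 intensity over the arrays) stands for it. No filter on low values was applied. The members fall into 8 early erythroid genes, 10 membrane and blood group genes, 12 genes of haem, iron and globin, and 5 platelet genes. Values are log2 intensities, in which 1 unit is a 2-fold difference, and levels of different genes are not compared because each probe set has its own brightness.

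Both groups were grown from cKit+ cells infected with MLL-AF9-IRES-YFP, a retroviral leukaemia fusion with a yellow fluorescent marker. Lethally irradiated wild-type mice aged 12 weeks received 50000 of these cells together with 250000 wild-type support marrow cells. Both groups were labelled MLL-AF9 and ROSAwt/CreERT2, a Cre that tamoxifen activates. The WT group (n = 3, labelled male) was EF1αwt/wt, and the N1-IC group (n = 3, labelled female) was EF1αwt/lsl-N1-IC, an allele built to release the intracellular domain of Notch1 from the EF1α locus once Cre acts. Both groups were injected 2 times with tamoxifen (0.2 mg per g) from 4 weeks after transplantation and were analysed 6 days after the last dose. The sorted cells, called LGMP, were Lineage-, Sca1-, cKit+, YFP+, CD34+ and FcgRII/III+, and 5 ng of their RNA was amplified for each array. Sex and genotype cannot be told apart, the number of recipients behind a sample is not given, and nothing in the labels says that the samples came from separate transplants, so a p-value here measures sample-to-sample spread that may be technical.

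Red cell progenitors are driven by the transcription factors GATA1 and KLF1, which switch on the erythropoietin receptor, blood group and membrane transport proteins, and the enzymes that build haem from glycine, with globin accumulating last. Megakaryocytes, which shed platelets, share GATA1 and several early factors with red cell progenitors before the lineages part. Granulocyte-macrophage progenitors, the normal counterpart of the sorted leukaemia cells, sit on another branch and normally express little of either program.

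Of genes that go with the label of the sorted cells, Mpo, the neutrophil peroxidase, lay at 13.80 to 14.11 over the 6 arrays. Elane, neutrophil elastase, lay at 13.59 to 13.90 and Kit at 10.23 to 10.76. No array of another cell type was measured, so these values do not test that label. Notch1 lay at 11.54, 11.38 and 11.07 in WT replicates 1, 2 and 3 and at 11.08, 11.31 and 11.59 in N1-IC, so the groups overlapped. Where its probe set lies relative to the induced domain is not known here, so these values do not check the genotype label. The array of WT replicate 2 stood apart from its label in another respect. Xist, the female-specific RNA that silences an X chromosome, lay at 5.64 and 5.42 in WT replicates 1 and 3, at 10.70 in WT replicate 2 and at 12.73 to 12.82 in N1-IC. The Y-linked gene Eif2s3y was lowest among the WT arrays in WT replicate 2, at 10.34 against 11.31 and 11.26, but far above the N1-IC arrays (2.94 to 3.46). Kdm5d and Uty, also Y-linked, were at 6.88 and 6.70 in WT replicate 2, below the other WT arrays (at least 8.07 and 7.32), against 2.73 to 3.24 in N1-IC. This array thus held Y-linked RNA, as its male label says, together with Xist, which goes against that label. What gave it both was not tested, and results that rest on it are given with and without it.

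WT replicate 2 stood apart from the other arrays for many of the 35 genes. It was the highest of the 6 arrays for 26 of them, where it was highest for 18.9% of all genes. For 20 of the 35 genes it exceeded the highest of the other 5 arrays by at least 1 log2 unit, against 0.973% of all genes, and for 12 by at least 2 units, against 0.335% of all genes. These counts describe 1 array and carry no test. The genes had been proposed with a high erythroid mean on this array already known, so the counts are no independent evidence of it. In the same reckoning WT replicates 1 and 3 each exceeded the others by at least 1 unit for 0 members. So did N1-IC replicates 2 and 3, while N1-IC replicate 1 did for 1 member, Gp1bb. Over all genes the shares were 0.401% and 0.0934% for WT replicates 1 and 3. They were 0.159%, 0.269% and 0.313% for N1-IC replicates 1, 2 and 3. At shares this small, a count of 0 among 35 genes says little. None of the 35 genes was lowest in WT replicate 2, where 4369 of all 18194 genes had their lowest value. The lowest array was WT replicate 1 for 15 members, while the N1-IC arrays held the minimum of 12, 7 and 1 members in replicate order. Shares of all genes with their minimum on those arrays were not counted, so these counts only describe the members. In bulk RNA, more cells of a type and more RNA per cell cannot be told apart.

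**Figure D1:**
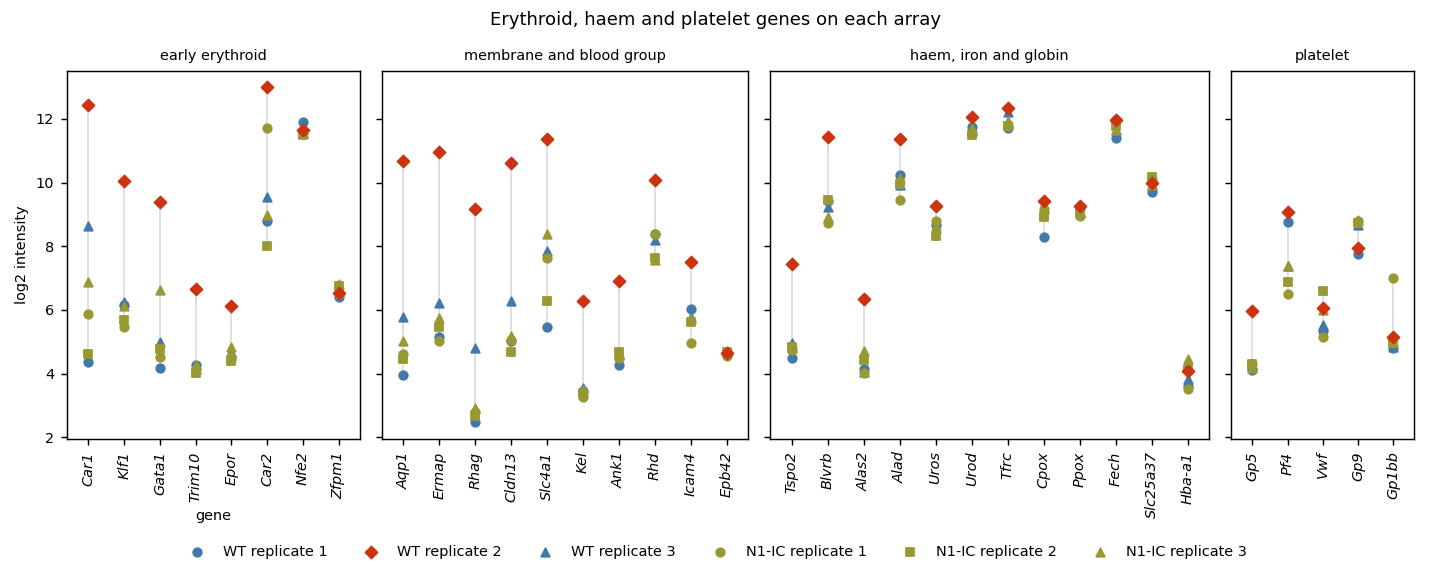
Log2 intensity (vertical axis) of each of the 35 genes (horizontal axis, in 4 groups by role and ordered within a group by the excess of WT replicate 2), with 1 point per array and a grey line over the range of the 6 arrays. WT replicate 2 (red diamonds) is the highest array for 26 of the genes and stands clear in the early erythroid and membrane groups, while the points of most haem enzymes and of the platelet genes lie close together or in another order.

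Among early erythroid genes, 6 of 8 lay at least 1 unit higher in WT replicate 2 than on any other array. Klf1, the erythroid Krüppel-like transcription factor, was at 10.04 in WT replicate 2, at 6.16 and 6.25 in WT replicates 1 and 3, and at 5.46, 5.68 and 6.14 in N1-IC replicates 1, 2 and 3. The other 5 arrays thus lay within 1 unit of each other and WT replicate 2 lay 3.79 units above the highest of them, a 13.9-fold difference. Gata1, the master regulator of red cells and megakaryocytes, was at 9.39 in WT replicate 2, at 4.17 and 4.99 in the other WT arrays, and at 4.51, 4.78 and 6.64 in N1-IC. N1-IC replicate 3 was the next highest for this gene, 2.75 units below WT replicate 2. The gene for its cofactor, Zfpm1, did not follow: it lay at 6.54 in WT replicate 2 within a range of 6.42 to 6.82 on the other 5. Its second probe set was highest in WT replicate 2, by 0.57 units. Nfe2, a leucine zipper factor of both lineages, was also level, at 11.65 in WT replicate 2 against 11.50 to 11.90.

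The erythropoietin receptor gene Epor was at 6.13 in WT replicate 2 and at 4.41 to 4.84 on the other arrays. Trim10, a TRIM family gene linked to red cell maturation in mouse, was at 6.67 against 4.02 to 4.27. The carbonic anhydrase genes, whose enzymes interconvert carbon dioxide and bicarbonate, varied more among the other arrays. Car1 was at 12.44 in WT replicate 2 and at 4.37 and 8.64 in WT replicates 1 and 3, and at 5.87, 4.61 and 6.88 in N1-IC. On the linear scale its intensities were 5561 in WT replicate 2, 399.2 in WT replicate 3 and 20.7 to 117.6 on the remaining arrays. WT replicate 3 was thus clearly second for Car1, and it was the second highest array for 8 of the 20 genes past 1 unit. Car2 was at 12.99 in WT replicate 2, but N1-IC replicate 1 followed at 11.73, with 8.02 to 9.55 elsewhere.

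The membrane and blood group genes differed most, with 9 of 10 at least 1 unit and 7 at least 2 units above every other array in WT replicate 2. Aqp1, the water channel, had the largest excess of all 18194 genes: it was at 10.69 in WT replicate 2, at 3.96 and 5.79 in WT replicates 1 and 3, and at 4.62, 4.47 and 5.02 in N1-IC, so that WT replicate 2 was 29.9-fold above the next array. Ermap, the carrier of the Scianna blood group, ranked second of all genes, at 10.97 against 5.15 and 6.23 in WT and 5.02, 5.45 and 5.74 in N1-IC. Rhag, a channel that assembles with the Rh proteins, was at 9.17 in WT replicate 2, at 4.80 in WT replicate 3 and at 2.48 to 2.91 on the other arrays, which lies below the lower quartile of every array (3.86 to 3.92). Whether such low values exceed background is unknown, so the size of that difference is uncertain. More widely, for 12 of the 20 members past 1 unit the median of the other 5 arrays lay below the median probe set value of every array. Aqp1, with a median of 4.62 on the other arrays, was among them, so its fold difference may also be uncertain in size. Cldn13, a claudin gene, was at 10.60 against 4.67 to 6.29.

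Slc4a1, the chloride-bicarbonate exchanger of the red cell membrane, was at 11.37 in WT replicate 2, at 5.47 and 7.86 in the other WT arrays and at 7.64, 6.29 and 8.39 in N1-IC. WT replicate 1 was the lowest array for this gene. Its second probe set had the same order at the top (excess 3.05) and its dimmest one was level (4.27 to 4.74). Ank1, the ankyrin that ties the exchanger to the cell skeleton, was at 6.90 against 4.28 to 4.67 by its brightest probe set, and 2 of its 4 probe sets did not have WT replicate 2 as the highest array. Kel, the Kell blood group endopeptidase, was at 6.29 against 3.26 to 3.54, and the values on the other arrays lie below the lower quartile of every array. Rhd and Icam4, which carry the Rh and LW blood groups, were at 10.08 against 7.58 to 8.39 and at 7.50 against 4.95 to 6.04. Epb42, which encodes a linker bound to the exchanger, was the exception by its brightest probe set, at 4.65 within 4.54 to 4.71. Its dimmer probe set was at 6.49 in WT replicate 2 and at 2.81 to 3.08 elsewhere, so the probe sets of Epb42 disagreed.

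The 300 bases around the start sites of the 5 members with the largest excess among those with an entry in the RefSeq promoter table (build GRCm38.p6) follow, since these genes were high on the same array. Each window runs 5′ to 3′ from 250 bases before to 50 after the start site, and capitals mark matches on either strand to a GATA motif (the letters A or T, then GATA, then A or G) or to a KLF motif (CCNCNCCC).
Aqp1 (chr6:55336049-55336348, plus strand): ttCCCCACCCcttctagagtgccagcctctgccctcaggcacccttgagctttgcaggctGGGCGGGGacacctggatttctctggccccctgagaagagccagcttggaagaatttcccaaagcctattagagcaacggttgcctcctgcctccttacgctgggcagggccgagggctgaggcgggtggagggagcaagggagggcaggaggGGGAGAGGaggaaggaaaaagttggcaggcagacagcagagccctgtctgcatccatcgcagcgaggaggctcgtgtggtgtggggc
Ermap (chr4:119189946-119190245, minus strand): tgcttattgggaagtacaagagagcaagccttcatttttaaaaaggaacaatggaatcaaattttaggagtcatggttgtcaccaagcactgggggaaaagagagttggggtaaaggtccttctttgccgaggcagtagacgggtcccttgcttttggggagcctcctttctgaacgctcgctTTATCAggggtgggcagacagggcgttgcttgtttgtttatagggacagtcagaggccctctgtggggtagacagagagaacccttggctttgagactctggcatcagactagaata
Rhag (chr17:40810899-40811198, plus strand): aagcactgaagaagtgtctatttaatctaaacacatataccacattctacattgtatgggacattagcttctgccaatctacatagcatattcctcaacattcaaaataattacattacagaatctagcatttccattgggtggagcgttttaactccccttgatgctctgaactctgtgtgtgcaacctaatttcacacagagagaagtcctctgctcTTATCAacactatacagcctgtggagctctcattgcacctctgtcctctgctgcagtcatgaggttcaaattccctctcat
Klf1 (chr8:84901732-84902031, plus strand): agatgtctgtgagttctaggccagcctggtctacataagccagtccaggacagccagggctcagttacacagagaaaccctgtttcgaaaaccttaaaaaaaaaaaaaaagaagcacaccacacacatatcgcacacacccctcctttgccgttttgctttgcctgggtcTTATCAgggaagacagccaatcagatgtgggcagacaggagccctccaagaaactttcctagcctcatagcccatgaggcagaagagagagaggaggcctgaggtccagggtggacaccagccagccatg
Gata1 (chrX:7967861-7968160, minus strand): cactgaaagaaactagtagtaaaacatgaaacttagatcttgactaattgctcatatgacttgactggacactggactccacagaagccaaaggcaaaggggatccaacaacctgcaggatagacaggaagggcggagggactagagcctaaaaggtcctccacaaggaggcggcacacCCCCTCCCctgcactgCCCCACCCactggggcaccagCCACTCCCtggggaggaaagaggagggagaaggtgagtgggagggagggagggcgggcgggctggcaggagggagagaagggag

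The windows of Ermap, Rhag and Klf1 each hold 1 GATA match and no KLF match. All 3 matches read TTATCA on the printed strand, and they begin at -67, -31 and -80 from the start site, which counts as +1. The windows of Aqp1 and Gata1 hold 3 KLF matches each and no GATA match. Over all members 26 genes had 30 windows in the table, and 17 (56.7%) held a GATA match, where 9778 of all 32851 windows did (29.8%). A KLF match was found in 63.3% of member windows and in 49.5% of all windows, and both motifs in 6 member windows (20%) and in 10.2% of all. Matches of different motifs may overlap, and the shares are descriptions of letters, not of bound sites.

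Of the 12 haem, iron and globin genes, 4 lay at least 1 unit higher in WT replicate 2 than elsewhere, and the median excess over the median of the other arrays was 0.51 units, against 3.28 for the membrane genes and -0.019 for all genes. Alas2, the erythroid form of the enzyme that starts haem synthesis, was at 6.35 in WT replicate 2, at 4.14 and 4.06 in WT replicates 1 and 3 and at 4.02, 4.44 and 4.71 in N1-IC. Alad, the next enzyme, was at 11.37 against 9.47 to 10.25, and its dimmer probe set was highest in WT replicate 2 by 0.40 units. Tspo2, a translocator protein of erythroid cells, was at 7.44 against 4.49 to 4.95. Blvrb, a biliverdin and flavin reductase abundant in red cells, was at 11.42 in WT replicate 2, a 3.95-fold excess over the next array, with 8.73 to 9.44 elsewhere.

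The later enzymes of the pathway had a smaller excess. WT replicate 2 was 0.46 units above the next array for Uros, 0.31 for Urod and 0.07 each for Cpox and Ppox. Cpox ranged from 8.28 in WT replicate 1 to 9.41 in WT replicate 2, with 8.92 to 9.34 on the others, and its second probe set from 5.24 to 7.35 in the same arrays. Uros was the member nearest below the 1-unit line and Alad (1.12) the nearest above it. Fech, ferrochelatase, which inserts the iron, was at 11.97 in WT replicate 2 and at 11.97 in N1-IC replicate 1, with 11.40 to 11.77 elsewhere. By the dimmer probe sets of Fech the excess of WT replicate 2 was -0.67, -0.85 and 0.37. The transferrin receptor gene Tfrc was at 12.36 in WT replicate 2 and 12.21 in WT replicate 3, with 11.71 to 11.95 elsewhere. Over its 6 probe sets the excess ran from -0.23 to 0.83. The mitochondrial iron carrier Slc25a37 was at 9.99 within 9.70 to 10.17. Hba-a1, an alpha globin gene, was at 3.50 to 4.45 on all 6 arrays with N1-IC replicate 3 highest. These values lie near the lower quartile of the arrays, and probe sets assigned to several globin genes were not used here, so they say little about globin RNA.

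The mean of the 5 platelet genes was also highest in WT replicate 2, at 6.84 against 6.15 to 6.36, and their median excess over the median of the other arrays was 0.51 units. At least 1 unit above every other array there was 1 of the 5, Gp5, at 5.97 against 4.11 to 4.31. Gp5, Gp9 and Gp1bb encode subunits of the platelet receptor for von Willebrand factor, and they had 3 different orders. Gp9 was at 7.75 and 7.93 in WT replicates 1 and 2 and at 8.66 in WT replicate 3, and lay at 8.80, 8.72 and 8.82 in N1-IC. WT replicate 2 was thus among the low arrays for Gp9. Gp1bb was at 7.01 in N1-IC replicate 1 and at 4.79 to 5.15 elsewhere, and its other probe set was also highest there (5.45 against 4.17 to 4.62). Pf4, a platelet granule chemokine, was high in 2 WT arrays, at 8.75 and 9.09 in replicates 1 and 2, and lay at 7.39 in WT replicate 3 and at 6.51, 6.87 and 7.39 in N1-IC. Vwf itself was highest in N1-IC replicate 2, at 6.59, with 6.05 in WT replicate 2.

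Genes of the same lineages outside the 35 were counted as well. These lists too were chosen with earlier results of these data known. Of 22 further erythroid genes measured, 7 lay at least 1 unit higher in WT replicate 2 than on any other array. The share of all genes past that line was 0.973%. WT replicate 2 was the highest array for 14 of the 22 genes and the lowest for 3. Named next are the 3 with the largest excess. Pklr, the pyruvate kinase of liver and red cells, was at 11.72 against 5.62 to 7.37, Tspan33, a tetraspanin gene, at 11.06 against 6.15 to 7.49, and Ces2g, a carboxylesterase gene, at 10.90 against 4.48 to 7.34. By contrast 1 of 19 further haem and iron genes did (Steap3, an iron reductase gene, excess 1.14) and 1 of 27 further megakaryocyte genes (F2r, a thrombin receptor gene, excess 1.30). Among the 10 genes of the whole array with the largest excess, 5 were members and 1 was Pklr. The others were St3gal6, Tjp1, Slc38a5 and Bex4, at 8.59, 8.88, 8.21 and 9.30 in WT replicate 2 with no other array above 5.44.

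Markers of other cell types were read in the same way. The Lineage-, Sca1-, cKit+, YFP+, CD34+ and FcgRII/III+ gate would remove most mature cells of every lineage, erythroid cells included. How far it did so was not measured. The share of all genes at least 1 unit higher in WT replicate 2 than on any other array was 0.973%. Of 15 mast cell, basophil and eosinophil markers 0 lay at least 1 unit above every other array, and their mean level was 6.88 there, within the 5.69 to 7.01 of the others. The 3 with the largest excess were each highest in WT replicate 2: Epx, eosinophil peroxidase, at 9.02 against 4.89 to 8.51, Hdc, which makes histamine, at 10.44 against 8.40 to 10.14, and Fcer1a, the IgE receptor subunit, at 8.15 against 2.46 to 7.95. N1-IC replicates 2 and 3 were also high for Epx and Fcer1a. Of 12 markers of the macrophages that nurse red cell precursors 1 did, Cd163, at 7.79 with WT replicate 3 next at 6.46. Siglec1, a macrophage sialic acid receptor gene, was also highest there, at 5.49 against 5.09 to 5.39. WT replicate 2 was the lowest array for 4 of the 12 macrophage markers, among them C1qa and Marco. Their mean was 5.47 there, within the 5.21 to 5.56 of the other arrays. Of 13 lymphoid markers 2 lay at least 1 unit above every other array. Cd3d was at 6.19 against 4.10 to 4.89 and Gzma at 6.55 against 3.22 to 5.35. The mean of 13 granulocyte-macrophage progenitor genes was 12.26 in WT replicate 2 and 12.16 to 12.31 elsewhere. None of the 4 measured sort gate genes was highest on this array. Kit was lowest there, at 10.23 against 10.42 to 10.76, and Cd34 was at 11.52 against 10.05 to 11.69. Late granulocyte markers, with 1 of 10 past the line (Ltf, lactoferrin, excess 1.01), instead set WT replicate 1 apart, where their mean was 7.50 against 9.68 to 10.30 on the other 5 arrays. The part of Xist and of these markers in the erythroid values was not tested.

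**Figure D2:**
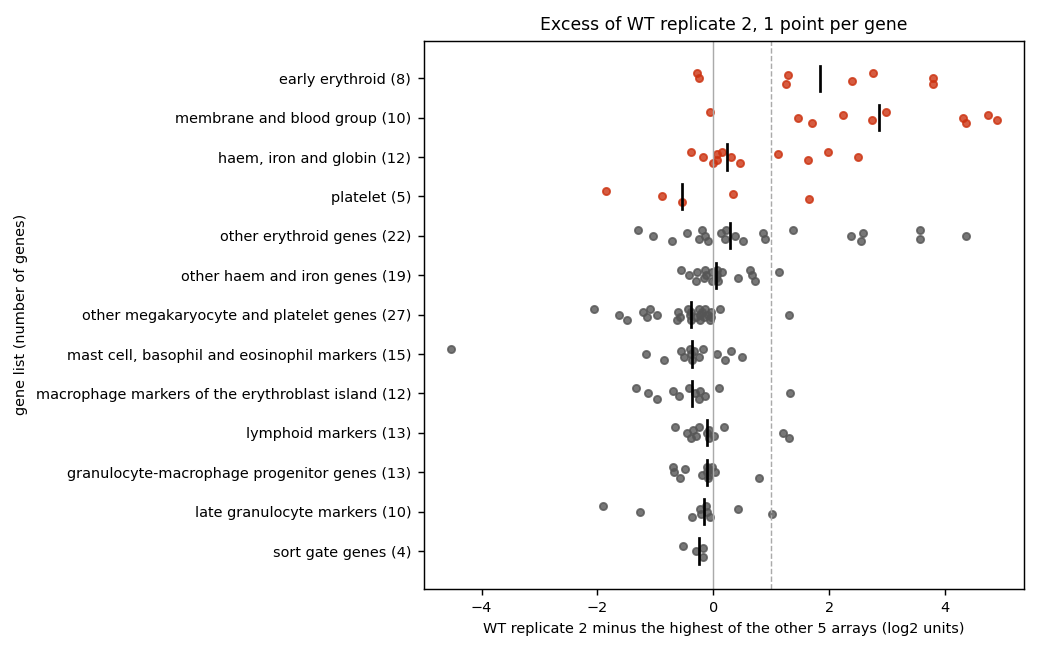
Log2 intensity in WT replicate 2 minus the highest of the other 5 arrays (horizontal axis), with 1 point per gene, 1 line per gene list (number of genes in brackets) and a black bar at the list's median. The 4 upper lists (red) are the 35 genes, the grey lists are other genes, and the dashed line marks 1 unit. The membrane genes reach the highest values, up to 4.90. Early erythroid genes reach 3.80, and the grey list of other erythroid genes reaches 4.36, with 7 of its 22 genes at or past 1 unit. Most points of the remaining grey lists lie near or below 0.

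Setting N1-IC against WT asks whether the genotypes differed in these genes. Of the 35 genes 27 had a lower and 8 a higher mean in N1-IC, where 8626 of all 18194 genes had a lower one. Of the members 0 passed the limma test at an adjusted p under 0.05 over all genes (smallest adjusted p of a member 0.618). The share of all genes past this threshold was 0.00550%, which is the Y-linked gene Eif2s3y alone. At an unadjusted limma p under 0.05 there were 2 of the 35, Pf4 and Gp9, against 7.98% of all genes. The median log2 fold change of the members was -0.66 against 0.012 for all genes, and by role it was -0.87 for early erythroid, -1.04 for membrane, -0.23 for haem, iron and globin, and 0.27 for platelet genes. Without WT replicate 2 the median of the members was -0.036, with 19 lower and 16 higher, where 8783 of all 18194 genes were lower. The role medians without that array were -0.019, -0.23, 0.028 and 0.48. In that limma fit 0 members passed the adjusted threshold, against 0.0275% of all genes, and 0 had an unadjusted p under 0.05, against 5.96% of all genes.

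Single genes showed the same dependence. Klf1 had a mean of 7.48 ± 2.22 (SD, n = 3) in WT and 5.76 ± 0.35 in N1-IC. Its log2 fold change was -1.72 ± 1.04 (limma standard error), which was -0.44 ± 0.22 without WT replicate 2. Car1 had -2.70 ± 1.95 over all arrays and -0.72 ± 1.38 without that array, and Aqp1 had -2.11 ± 1.62 and -0.17 ± 0.55. The sign of 8 genes turned when WT replicate 2 was left out: Gata1 went from -0.87 to 0.73, Slc4a1 from -0.79 to 0.78 and Car2 from -0.86 to 0.41, and Alas2, Ank1, Epor, Gp5 and Tspo2 also turned to values from 0.024 to 0.29. The sign of these 8 values in the fit over all arrays rested on 1 array.

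For 3 of the 35 genes the groups did not overlap. Klf1 and Icam4 had all 3 N1-IC values below the lowest WT value (2 of 35, where 6.52% of all genes did). Icam4 was at 6.04, 7.50 and 5.77 in WT and at 4.95, 5.62 and 5.72 in N1-IC, so the nearest arrays differed by little, and its log2 fold change was -1.01 ± 0.48 (adjusted p = 0.62), or -0.48 ± 0.27 without WT replicate 2. Gp9 had all 3 N1-IC values above the highest WT value (1 of 35, where 8.32% of all genes did). Its WT mean was 8.12 ± 0.48, its N1-IC mean 8.78 ± 0.053, and its log2 fold change 0.66 ± 0.24, or 0.57 ± 0.28 without WT replicate 2. Pf4 had the lowest unadjusted p of the members, with means of 8.41 ± 0.90 and 6.92 ± 0.45, a log2 fold change of -1.48 ± 0.47 and an adjusted p of 0.618. It was -1.14 ± 0.47 without WT replicate 2, and the groups overlapped at WT replicate 3 and N1-IC replicate 3.

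**Figure D3:**
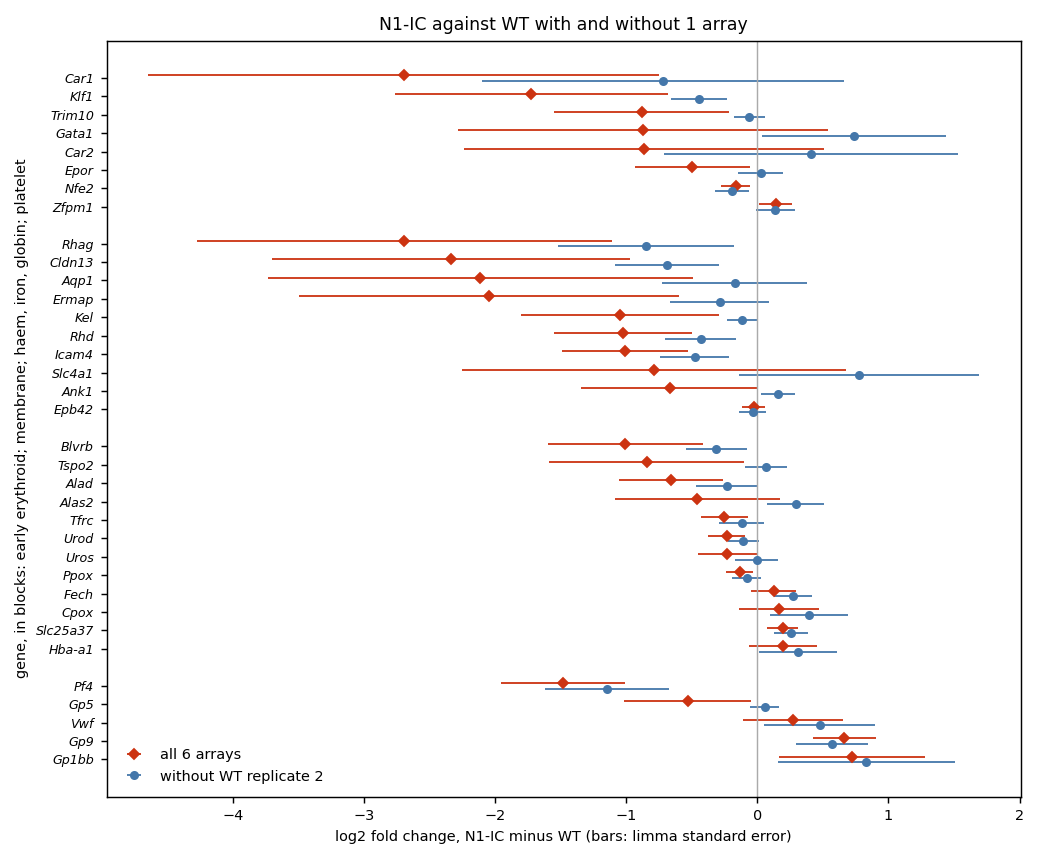
Log2 fold change of N1-IC against WT (horizontal axis) for each of the 35 genes in 4 blocks by role, with limma standard errors as bars, from all 6 arrays (red diamonds) and without WT replicate 2 (blue circles). The medians of the early erythroid and membrane genes lie at -0.87 and -1.04 with all arrays and at -0.019 and -0.23 without that array. Pf4, Gp9 and Gp1bb keep similar values in both fits, although that of Gp1bb falls to 0.043 when N1-IC replicate 1 is left out.

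Other genes of these lineages gave no call either. Of the 22 further erythroid genes 15 had a lower N1-IC mean and 7 a higher one, with 0 past the adjusted threshold and 3 at an unadjusted p under 0.05, and without WT replicate 2 there were 15 higher and 7 lower. Of the 27 further megakaryocyte genes 13 were higher and 14 lower (median -0.029), with 0 past the adjusted threshold and 3 at an unadjusted p under 0.05, and of the 19 further haem and iron genes 7 were higher and 12 lower (median -0.048), with 0 past it and 1 at an unadjusted p under 0.05. Without WT replicate 2 the megakaryocyte genes were 12 higher and 15 lower (median -0.027), and the haem and iron genes 11 higher and 8 lower (median 0.026). Of all 18194 genes 7.98% had an unadjusted limma p under 0.05 with all arrays. The N1-IC mean was lower for 8626 of all genes with all arrays and for 8783 without WT replicate 2.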

How the data were processed

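The authors deposited 1 intensity for each probe set on each array, on a linear scale, and RMA (background correction, quantile normalization and probe summary) is named in the submitters' processing notes. No version of it is given in the sources used here. Array medians lay between 49.6 and 51.0. Values were taken to log2 with no offset. Of 45101 probe sets 34958 had 1 gene symbol, 932 several and 9211 none in the platform annotation, and the probe set with the highest mean represented each of 18194 genes.

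N1-IC (3 arrays) and WT (3 arrays) were compared by lmFit and eBayes of limma 3.58.1 (R 4.3.3) and Benjamini-Hochberg adjustment over all genes, at 0.05. WT replicate 2 was set against the highest and the median of the other 5 arrays with no test. The number of arrays limits the precision. The members, role groups and other lists were chosen with earlier results of these data known. Named are all members, the 3 genes with the largest excess of WT replicate 2 in other lists where they describe an array, and the 10 genes with the largest excess overall. Sex-linked, sort gate and myeloid genes are named where they describe an array. Notch1 is named for the engineered allele, outside this rule. Promoters are from RefSeq. Alternatives changed the limma prior, weights, normalization, probe set choice, filter, replicate block and single arrays.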

Additional observations from a re-analysis of the deposited data

How the results depend on the processing

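No member passed the adjusted threshold in any of the alternatives run. The number of all genes past it was 1 in the limma fit described, 3 with a mean-variance trend, 2 with array weights, 2 when dimmer genes than the median were dropped (16 members stayed), 5 when probe sets of a gene were averaged, 4 among all probe sets, and 0 to 5 with 1 array left out. With a replicate block it was 0. Same-numbered arrays of the groups did not deviate together (correlations across genes of 0.0093, 0.061 and -0.11), so the numbers were not read as pairs. The count of members at least 1 unit higher in WT replicate 2 was 20, and 12 at a 4-fold excess. For some members passing 1 unit depended on the probe set. The excess by the brighter and the dimmer probe set was 1.12 and 0.40 for Alad, and -0.063 and 3.41 for Epb42. The cause of each change in a count was not tested beyond the fewer genes or arrays used.

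Centred on array medians, the log2 fold change of Epb42 was 0.043, and with probe sets averaged those of Cpox and Zfpm1 were -0.036 and -0.067. With 1 array left out it ran from -1.88 to 0.73 for Gata1, -2.17 to 0.78 for Slc4a1, -1.94 to 0.41 for Car2, -0.85 to 0.29 for Alas2, -1.15 to 0.16 for Ank1, -0.81 to 0.024 for Epor, -0.87 to 0.057 for Gp5, -1.41 to 0.063 for Tspo2, -0.17 to 0.39 for Cpox, -0.011 to 0.27 for Fech, -0.061 to 0.023 for Epb42, -0.065 to 0.65 for Vwf and -0.013 to 0.46 for Hba-a1. Of the 35 fold changes 21 kept their sign in each alternative run. Among these Gp1bb ran from 0.043 to 1.07 with 1 array left out. The median of the members ran from -0.95 without WT replicate 3 to -0.036 without WT replicate 2. The count of 20 members with 1 other array left out at a time was added after seeing the data and was 20 or 21. Values near the lower quartile of an array may not exceed background.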
